A study of Mus musculus with 2 samples.

Results

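The potassium channel gene family was taken as the protein-coding genes whose symbols begin with Kcn followed by a class letter code and a number. Of the 55536 annotated genes in the deposited gene tables, 92 met this rule, with 394 annotated transcripts in 19 symbol classes. Total RNA was sequenced from hippocampus, labelled as a layer of it, of mice aged 10 days of B6CASTF1/J, a cross of C57BL/6J with CAST/EiJ. Both libraries belong to 1 group with no treatment, both are labelled male, and each was started from 300 ng of RNA. Each label names 3 males, and whether their RNA was pooled is not spelled out. No condition was varied. The values described are member levels, their transcripts, and differences between the 2 libraries and between the 2 deposited quantifications, one made from alignments and one directly from the FASTQ file.

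Potassium channels let potassium ions leave or enter the cell and so set the resting potential, the shape of the action potential and the firing rate of neurons. Voltage-gated (Kv) channels are built from 4 pore-forming alpha subunits and open on depolarization, inward rectifiers (Kir, class Kcnj) hold the membrane near rest, and tandem pore domain channels (class Kcnk) carry leak current. Channels of classes Kcnm, Kcnn and Kcnt open on internal calcium or sodium, and auxiliary subunits (Kcnip, Kcnab, Kcne and the Kcnmb genes) change how the pore-forming subunits are trafficked and gated.

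The 2 libraries held 31920933 and 29640307 expected counts on genes in replicates 1 and 2. Sex-linked genes went against the label of replicate 2. In the library labelled male, replicate 2, Xist reached 30841 counts and Ddx3y 0, whereas replicate 1 held 25 and 2164. This library is written replicate 2 in what follows, and each difference between the libraries is also a difference between libraries that differ in these genes. Of the markers of hippocampal neurons, 4 of 4 genes of pyramidal neurons, 4 of 4 of dentate granule cells and 6 of 6 of GABAergic interneurons were detected in both. Of 6 choroid plexus markers, 3 were detected in both, with a summed level of 13.0 TPM in replicate 1 and 355 TPM in replicate 2, and the 5 markers of myelinating oligodendrocytes summed to 156 and 281 TPM. In bulk tissue, fewer cells of a type and less RNA per cell cannot be told apart. Levels are TPM, transcript abundance scaled by length and library, from the deposited alignment-based gene table unless stated otherwise.

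Of the 92 members, 66 (71.7%) reached a TPM of at least 1 in both libraries, against 59.4% of all protein-coding genes. The summed level of the family was 1373 TPM in replicate 1 and 1403 TPM in replicate 2, and the median member stood at 8.72 and 8.61 TPM. In both libraries 43 members reached 10 TPM and 5 reached 50 TPM. Among these were Kcnab2, Kcnip2 and Kcnma1. The 10 highest members held 42.5% and 42.3% of the summed level. At the other end, 10 members were below 0.1 TPM in both libraries. Kcnj1 and Kcnk18 had 0 counts in both, which allows up to 0.0940 CPM in replicate 1 and 0.101 CPM in replicate 2 (3 counts of the total, covering counting error only). Ordered by mean level, 26 of the 91 pairs of neighbouring members had ranges over the 2 libraries that did not overlap. The other neighbours did not differ beyond the spread between the libraries.

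By role, the 40 Kv alpha subunit genes held 46.4% of the summed level in both libraries, with 31 of them detected. The 11 Kcnip, Kcnab and Kcne genes held 18.4% in replicate 1 and 19.5% in replicate 2, with 7 detected. The 12 genes of the calcium- or sodium-activated classes Kcnm, Kcnn and Kcnt, counted together with class Kcnu, held 15.1% and 13.8% with 9 detected. The 15 inward rectifier genes held 11.5% and 12.3% with 10 detected, and the 14 tandem pore domain genes 8.51% and 8.02% with 9 detected. Kcnmb genes, auxiliary subunits by function, are counted here with their class Kcnm.

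**Figure D1:**
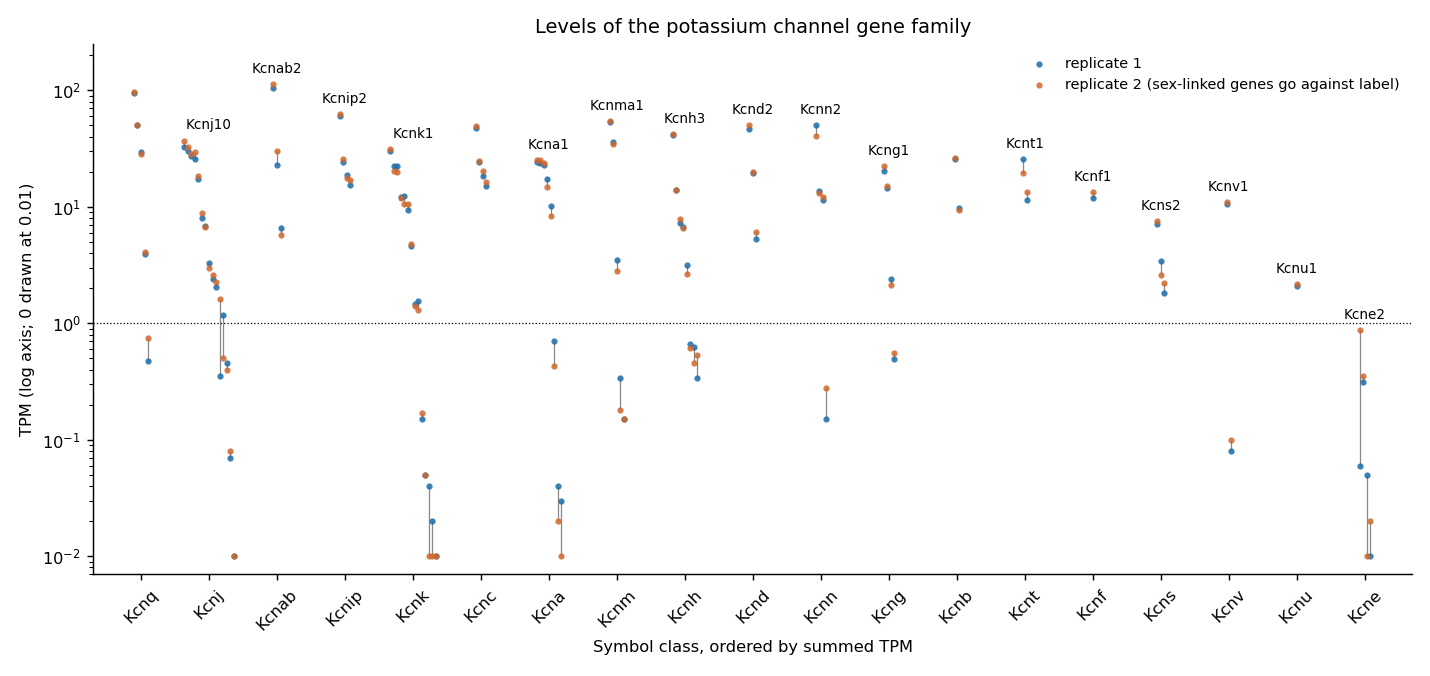
Level of each of the 92 members in TPM (log axis, 0 drawn at 0.01) in replicates 1 and 2 (replicate 2 is the library labelled male whose sex-linked genes go against it), grouped by symbol class in the order of summed level. A grey line joins the values of a member, a name above a class, where given, is its highest member, and the dotted line marks 1 TPM. Of the classes, Kcnq has the highest sum at 179.7 ± 0.573 TPM and in Kcne no member reaches 1 TPM in both libraries.

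The Kcnq class, whose channels carry the M-current that limits repetitive firing, had the highest summed level at 179 TPM in replicate 1 and 180.1 TPM in replicate 2. Kcnq3 stood at 50.04 and 50.6 TPM. Kcnq5 stood at 29.3 and 28.1 TPM. Kcnq1, the delayed rectifier gene of the heart, had 0.47 and 0.74 TPM, below its own deposited intervals of 0.794 to 3.69 and 1.10 to 4.23 TPM. The long antisense RNA Kcnq1ot1, which overlaps Kcnq1 on the opposite strand, had 2.72 and 2.56 TPM from 5492 and 4786 counts. Whether the counting used strand is not stated in the labels. Restricted to protein_coding transcripts, the class summed to 151.1 ± 0.672 TPM, below the 161.2 ± 9.72 TPM of the inward rectifiers (SD, n = 2), so Kcnq was not the highest class on those transcripts.

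Transcripts of Kcnq5 differed in short coding exons, and the sequences of these exons are shown because inclusion was intermediate. Inclusion is the share of TPM on the protein_coding transcripts of a gene that contain the exon, out of those plus the ones that span it without containing it. It is built from whole-transcript estimates and not from junction reads. The exon is in capitals and the adjoining bases of its neighbours in the spliced transcript are in lower case, all from the C57BL/6J reference transcripts of GENCODE M21 (mm10), on the strand of the gene.
Kcnq5 27-base exon, chr1:21466383-21466409, minus strand: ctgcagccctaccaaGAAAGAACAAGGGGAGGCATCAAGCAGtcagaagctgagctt
Kcnq5 57-base exon, chr1:21461551-21461607, minus strand: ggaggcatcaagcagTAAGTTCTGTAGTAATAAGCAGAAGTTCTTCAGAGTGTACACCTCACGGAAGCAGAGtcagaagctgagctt
Each length is a multiple of 3, so the reading frame is kept with or without the exon. The 57-base exon was included at 29.5% ± 3.10 from the FASTQ-based table and 39.0% ± 0.463 from alignments (SD, n = 2), and the 27-base exon just before it at 81.3% ± 5.38 and 86.1% ± 2.61. Kcnq5-201 held 43.7% and 41.7% of the gene and Kcnq5-203, which carries the 57-base exon, 24.8% and 37.7%. For Kcnq3, the protein_coding Kcnq3-201 held 67.2% and 77.5%, and the short Kcnq3-202, annotated as a processed transcript, 24.3% and 12.2%.

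Among the Shaker-type Kv1 genes (class Kcna), which set firing threshold and axonal excitability, 5 of 8 members were detected and 3 had nearly equal levels. Kcna1 stood at 24.1 and 25.2 TPM in replicates 1 and 2, Kcna6 at 23.9 and 25.2, and Kcna2 at 23.1 and 23.8. The ranges of Kcna1 and Kcna6 overlapped. Kcna4, the A-type member of the class, had 17.3 and 14.8 TPM, and Kcna3, well known from T cells, 10.1 and 8.34 TPM. Kcna5, a cardiovascular member, was at 0.70 and 0.43 TPM from 42 and 24 counts, and Kcna7 and Kcna10 were at or below 0.04 TPM. Those on chromosomes 6 and 3 lie in clusters where high and low members are neighbours, whereas Kcna4 lies on chromosome 2 and Kcna7 on chromosome 7. On chromosome 6, Kcna1 lies 105 kb from Kcna5 and 61.9 kb from Kcna6 with no protein-coding gene between, and the level of Kcna1 was 46.4 ± 17.0 times that of Kcna5 (SD of the ratio, n = 2). On chromosome 3, Kcna3 lies 63.1 kb from Kcna2, which lies 68.0 kb from Kcna10, a gene with 1 count in replicate 1 and 0 in replicate 2.

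The Shab-type genes (Kv2), which carry somatic delayed rectifier current, were both detected. Kcnb2 had 9.74 and 9.32 TPM. All 4 Shaw-type Kv3 genes, known for fast repolarization in fast-spiking neurons, were detected. Kcnc1 had 24.2 and 24.6 TPM, Kcnc2 18.6 and 20.5, and Kcnc4 15.2 and 16.4 TPM, with ranges that did not overlap. The Shal-type Kv4 genes, which carry the dendritic A-type current, were led by Kcnd2 (chromosome 6, 21215503 to 21729805, plus strand) at 46.2 and 49.95 TPM, followed by Kcnd3 at 19.5 and 19.8 and Kcnd1 at 5.31 and 6.06 TPM. Kcnd2 was 2.45 ± 0.106 times as high as Kcnd3 (SD, n = 2). The long and short forms of the Kcnd3 protein differ by the coding exon below, shown in capitals with flanks in lower case.
Kcnd3 57-base exon, chr3:105666962-105667018, plus strand: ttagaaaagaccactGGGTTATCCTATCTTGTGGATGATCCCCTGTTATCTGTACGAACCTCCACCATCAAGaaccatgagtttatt
It was included at 15.7% ± 3.17 from the FASTQ-based table and 12.5% ± 4.59 from alignments, so most Kcnd3 TPM lay on the short form in both libraries and by both routes.

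Of the ether-a-go-go-type genes (class Kcnh), 5 of 8 were detected. Kcnh3, a forebrain member, held 55.95% ± 0.628 of the class at 41.0 and 41.9 TPM. Kcnh7 followed with 14.1 and 13.9 TPM, Kcnh1 with 7.28 and 7.78, and Kcnh2, the human form of which underlies the cardiac rapid delayed rectifier, with 6.74 and 6.55 TPM. Kcnh5 had 3.16 and 2.63 TPM, Kcnh4 0.66 and 0.61, Kcnh8 0.63 and 0.46, and Kcnh6 0.34 and 0.53 TPM. Modulatory Kv subunits, which form no channel alone and join Kv2 subunits, were present as well. Kcng1 had 20.4 and 22.3 TPM and Kcng2 14.6 and 15.2, whereas Kcng3 had 2.42 and 2.13 and Kcng4 0.49 and 0.55. Kcnf1 had 12.01 and 13.3 TPM. Kcns2 had 7.14 and 7.5 TPM, Kcns1 3.44 and 2.62, and Kcns3 1.82 and 2.23. Kcnv1 had 10.6 and 10.9 TPM and Kcnv2, known from the retina, 0.08 and 0.10.

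Auxiliary subunits were among the highest members. Kcnab2 (chromosome 4, 152390742 to 152477871, minus strand), a beta subunit that binds Kv1 channels, was the highest of the 92 at 104 TPM in replicate 1 and 113 TPM in replicate 2, and held 76.96% ± 1.33 of its class. Kcnab1 had 23.0 and 30.1 TPM and Kcnab3 6.60 and 5.72. Kcnab2-201 and Kcnab2-207 differ in coding sequence by the exon below.
Kcnab2 42-base exon, chr4:152434782-152434823, minus strand: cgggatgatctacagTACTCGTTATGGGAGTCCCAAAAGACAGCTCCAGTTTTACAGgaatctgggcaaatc
The routes differed more here than for any other exon printed. Inclusion was 87.0% and 93.2% in replicates 1 and 2 from the FASTQ-based table, against 51.4% and 62.3% from alignments. Kcnab2-207, with the exon, held 59.4% of the gene from the FASTQ-based table and 31.8% from alignments, and Kcnab2-201, without it, 6.18% and 35.0%.

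The Kcnip genes encode the calcium-binding KChIP proteins, which bind Kv4 channels, and 4 of 4 were detected. Kcnip2 led at 59.8 and 62.4 TPM, Kcnip3 had 24.2 and 25.98, Kcnip1 18.9 and 17.6, and Kcnip4 15.5 and 17.0 TPM. Kcnip2 was 3.77 ± 0.121 times as high as Kcnip4 (SD, n = 2). KChIP transcripts vary in their amino-terminal coding exons, and those with intermediate inclusion are printed with the exon in capitals.
Kcnip1 33-base exon, chr11:33651540-33651572, minus strand: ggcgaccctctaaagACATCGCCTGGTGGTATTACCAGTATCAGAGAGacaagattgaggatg
Kcnip2 54-base exon, chr19:45796279-45796332, minus strand: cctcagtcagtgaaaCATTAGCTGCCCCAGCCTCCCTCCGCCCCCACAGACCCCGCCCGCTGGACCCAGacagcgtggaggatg
Kcnip4 102-base exon, chr5:48509659-48509760, minus strand: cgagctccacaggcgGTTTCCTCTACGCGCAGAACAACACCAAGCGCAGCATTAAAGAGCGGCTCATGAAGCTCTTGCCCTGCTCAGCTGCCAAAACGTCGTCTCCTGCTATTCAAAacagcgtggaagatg
The Kcnip2 exon was included at 86.3% ± 3.999 from the FASTQ-based table and 76.8% ± 4.81 from alignments, the Kcnip4 exon at 66.9% ± 14.1 and 63.1% ± 4.95, and the Kcnip1 exon at 36.96% ± 2.28 and 22.9% ± 6.20 (SD, n = 2). Kcnip2-209, with the exon, held 66.3% and 67.5% of its gene, and Kcnip2-202, which lacks it, 7.24% and 15.8%. Of the Kcne genes, small single-pass subunits best known from heart and epithelia, 0 of 4 were detected. Kcne4 had 0.31 and 0.35 TPM, Kcne3 0.05 and 0, and Kcne1 0 and 0.02 TPM, whereas Kcne2 had 0.06 TPM in replicate 1 and 0.87 in replicate 2.

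In the inward rectifiers the highest member, Kcnj10, held 21.1% ± 0.451 of the class (SD, n = 2), the lowest mean share of a leading member among the 19 classes. Kcnj10 (chromosome 1, 172341210 to 172374085, plus strand), the Kir4.1 gene that glia use to clear potassium, had 32.9 and 36.9 TPM in replicates 1 and 2. Kcnj16, which forms mixed channels with it, had 6.83 and 6.75. The G protein-activated GIRK genes followed close behind, Kcnj3 at 30.4 and 32.9 TPM, Kcnj6 at 27.2 and 28.5, and Kcnj9 at 17.2 and 18.3, whereas Kcnj5, the GIRK gene of the heart, had 0.46 and 0.40. Kcnj3 was 1.14 ± 0.0280 times as high as Kcnj6. Among the strong rectifiers Kcnj4 had 25.9 and 29.5 TPM, Kcnj12 3.30 and 2.99, and Kcnj2 2.41 and 2.59. Kcnj11, the pore gene of ATP-sensitive channels in neurons, had 8.01 and 8.88 TPM, and Kcnj8, the vascular one, 2.05 and 2.27. Kcnj13 had 0.35 and 1.61 TPM and Kcnj14 1.18 and 0.50, each reaching 1 TPM in only 1 library. Kcnj1, the renal ROMK gene, had 0 counts in both libraries from alignments and 2.00 in each from the FASTQ-based table. Its neighbour Kcnj5, also not detected, lies 28.1 kb away. Kcnj15, the neighbour of Kcnj6 at 259.9 kb, had 8 and 6 counts, and its 0.07 and 0.08 TPM lay below its own deposited intervals of 0.305 to 1.53 and 0.315 to 1.64 TPM, so no ratio is given.

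Of the tandem pore domain genes, 9 of 14 were detected. Kcnk1, the TWIK1 gene of astrocytes and neurons, had 30.3 and 31.5 TPM. The mechano- and lipid-gated members Kcnk10 (TREK2) and Kcnk2 (TREK1) had 22.4 and 20.5 TPM and 22.2 and 19.8 TPM. Their ranges overlapped. Kcnk4 (TRAAK) had 12.5 and 10.5 TPM, and the acid-sensitive Kcnk9 (TASK3) had 12.2 and 11.98 TPM, against 4.64 and 4.83 for Kcnk3 (TASK1). Kcnk12 (THIK2) had 9.43 and 10.5 TPM, and Kcnk6 and Kcnk13 had 1.55 and 1.30 and 1.46 and 1.41 TPM. Kcnk5, Kcnk7, Kcnk15, Kcnk16 and Kcnk18 were at or below 0.17 TPM, each from 7 counts or fewer in either library. The level of Kcnk2 was spread over several transcripts. From alignments Kcnk2-203, annotated nonsense_mediated_decay, led in replicate 1 at 28.8%, and the protein_coding Kcnk2-201 led in replicate 2 at 27.0%. By the mean of both libraries the protein_coding Kcnk2-206 led by either route. It held 38.4% and 31.2% in replicates 1 and 2 from the FASTQ-based table, and 27.3% and 21.6% from alignments.

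Among channels opened by internal ions, Kcnma1 (chromosome 14, 23289431 to 24014491, minus strand), the pore gene of the large-conductance BK channel, had 53.5 and 54.6 TPM. Of its beta subunits Kcnmb4, the neuronal one, had 35.9 and 34.4 TPM, Kcnmb2 3.52 and 2.83, Kcnmb3 0.34 and 0.18, and Kcnmb1, the smooth muscle one, 0.15 and 0.15. The antisense gene Kcnmb4os2 overlaps Kcnmb4 over 716 bases and had 13.3 and 11.3 TPM, and Kcnmb1 lies within Kcnip1 on the opposite strand. These overlaps are of whole gene bodies, introns included. Whether reads of these genes were mixed was not tested. Kcnma1 has 38 annotated transcripts, the most in the family. The exons below are those of its alternative coding exons with intermediate inclusion.
Kcnma1 12-base exon, chr14:23449200-23449211, minus strand: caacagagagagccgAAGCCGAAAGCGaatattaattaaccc
Kcnma1 81-base exon, chr14:23336040-23336120, minus strand: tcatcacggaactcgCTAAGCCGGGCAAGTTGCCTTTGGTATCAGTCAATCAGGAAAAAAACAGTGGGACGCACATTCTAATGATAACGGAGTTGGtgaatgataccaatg
The 12-base exon was included at 87.6% ± 0.981 from the FASTQ-based table and 85.4% ± 1.56 from alignments, and the 81-base exon at 73.6% ± 0.814 and 77.6% ± 0.498. Kcnma1-205, which carries both, held 59.0% and 65.6% of the gene. A further in-frame exon of 174 bases, in Kcnma1-212 and 8 other transcripts, was included at 8.17% ± 0.435 and 8.95% ± 0.341.

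Of the small-conductance SK channels (class Kcnn), which produce the afterhyperpolarization, Kcnn2 had 50.2 TPM in replicate 1 and 40.8 TPM in replicate 2, Kcnn3 13.6 and 13.0, and Kcnn1 11.3 and 12.1. Kcnn4, the intermediate-conductance channel of blood cells and epithelia, had 0.15 and 0.28 TPM. Of Kcnn3, only 52.5% from the FASTQ-based table and 51.9% from alignments lay on its protein_coding transcript, the remainder on Kcnn3-202, annotated as a retained intron. The sodium-activated genes Kcnt1 and Kcnt2 had 25.7 and 19.6 TPM and 11.5 and 13.5 TPM. In Kcnt1 the exon below is present in 4 and skipped in 3 of its protein_coding transcripts.
Kcnt1 42-base exon, chr2:25882196-25882237, plus strand: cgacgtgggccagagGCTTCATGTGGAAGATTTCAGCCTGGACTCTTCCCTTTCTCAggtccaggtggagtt
It was included at 86.4% ± 9.61 from the FASTQ-based table and 85.9% ± 3.96 from alignments, but only 23.6% and 24.4% of Kcnt1 TPM lay on protein_coding transcripts at all. Kcnu1, a sperm channel gene, had 2.07 and 2.16 TPM from 44 and 43 counts.

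**Figure D2:**
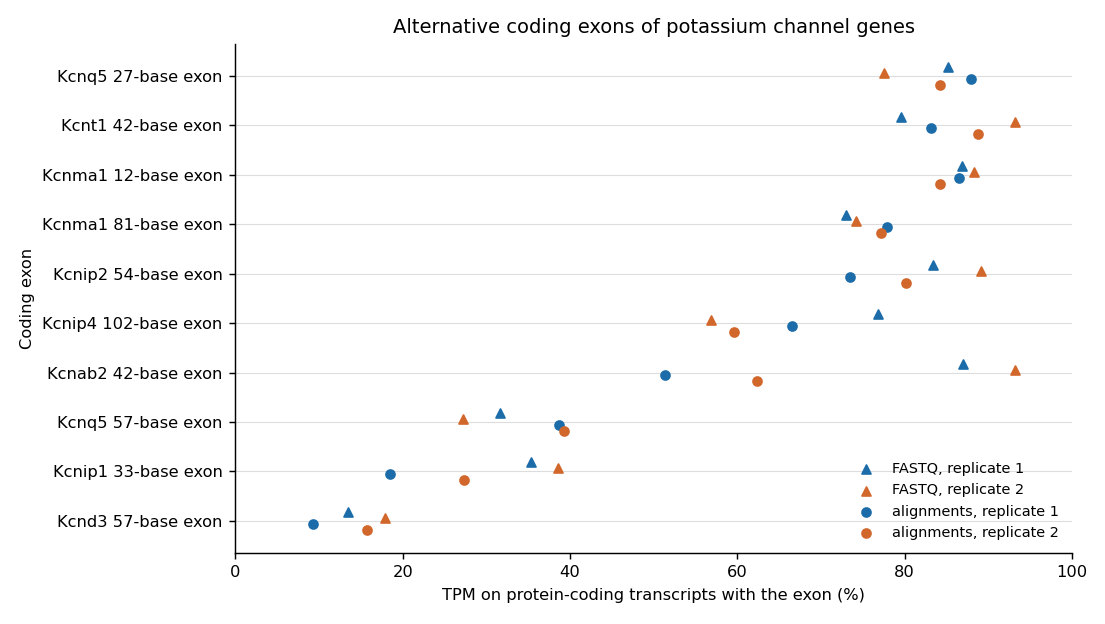
Share of TPM on protein_coding transcripts that contain each of the 10 printed exons (percent), from the FASTQ-based table (triangles) and from alignments (circles), with replicate 1 in blue and replicate 2 in orange. Kcnma1 and Kcnt1 exons have overlapping or near values by both routes, whereas the Kcnab2 exon lies at 87.0% and 93.2% from the FASTQ-based table and at 51.4% and 62.3% from alignments.

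In the family as a whole, 60 alternative coding exons of this kind were annotated in 21 members, of which 37 (61.7%) had a length divisible by 3. The 10 printed are from genes reported here, with such a length, a mean inclusion from alignments between 10 and 90%, a gene level of at least 15 TPM and a place outside chromosome 18. These limits were chosen after inclusion values had been seen.

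Across members with a mean of at least 5 TPM, the median share of TPM on protein_coding transcripts was 94.3% over 53 members, against 89.1% over 10416 protein-coding genes. Of the 53, 20 had all TPM on such transcripts, and the matching share of all genes was not computed. Among the 20, Kcna3, Kcnc4, Kcnd2, Kcnf1, Kcnj4, Kcnj10, Kcnk9 and Kcnk12 have only 1 annotated transcript each, which fixes their share at 100%. In Kcnt1 and Kcna6 the mean share was under 50%, which was the case for 9.09% of all genes. For Kcnt1 it was 23.6% from the FASTQ-based table and 24.4% from alignments. For Kcna6 the alignment-based shares were 0.0838% and 84.2% in replicates 1 and 2, so its mean of 42.2% describes neither library, and the FASTQ-based mean was 50.8%. From the FASTQ-based table Kcnab1 was under 50% instead, at 49.2% against 85.6% from alignments. For the 45 members with several transcripts, the leading transcript was annotated protein_coding in 43, and it was not in 2 (4.44%), Kcna6 and Kcnt1, beside 6.96% of 9606 genes. It differed between the libraries in 3 members (6.67%), Kcna6, Kcnab2 and Kcnk2, beside 8.51% of genes. Between the routes it differed in 7 (15.6%), Kcna6, Kcnab2, Kcnb2, Kcnj16, Kcnk10, Kcnn2 and Kcnt1, beside 23.6% of genes. All 3 shares were below those of the genes set beside them, and none was tested.

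In Kcna6 the split between near-identical transcripts was unstable while their sum was not. Kcna6-201 (5827 bases, annotated nonsense_mediated_decay) and Kcna6-204 (5836 bases, protein_coding) share 5824 bases and the same 1587 coding bases, so that 12 bases are found only in Kcna6-204 and 3 only in Kcna6-201. From the FASTQ-based table Kcna6-201 held 59.6% in replicate 1 and 32.0% in replicate 2, against 93.5% and 0.119% from alignments. Kcna6-204 held 29.7% and 63.9% from the FASTQ-based table, and 0.0838% and 84.2% from alignments. Summed, they held 30.3 and 31.5 TPM from the FASTQ-based table, and 22.3 and 21.2 TPM from alignments. The deposited interval of Kcna6-201 in replicate 1, 5.32 to 21.3 TPM, left out its own deposited value of 22.3 TPM. The change of label between the libraries is therefore not reported as a change of isoform.

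Kcnj16 showed the largest difference between routes in the share of the leading transcript. Kcnj16-201 held 3.55% and 11.3% from the FASTQ-based table, against 95.9% and 96.7% from alignments. Kcnj16-206 held 79.7% and 44.3% from the FASTQ-based table and 0 from alignments in both libraries. These transcripts have the same 1257 coding bases and share 3557 bases, with 114 found only in Kcnj16-201 and 144 only in Kcnj16-206. Within this pair, the routes therefore differ in non-coding bases only. From the FASTQ-based table the pair did not hold all of the gene, and the remainder was larger in replicate 2. The coding bases of the other Kcnj16 transcripts were not compared. In Kcnab1 the leading Kcnab1-201 held 49.2% from the FASTQ-based table against 85.6% from alignments, and the 534-base processed transcript Kcnab1-203 held 44.1% against 9.14%. For Kcnd1, Kcna4 and Kcng2 the FASTQ-based table put more on the leading transcript, at 90.8% against 70.0%, 100% against 80.6% and 97.3% against 78.0%. It put less on Kcnn1-204, at 47.8% against 63.8%.

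**Figure D3:**
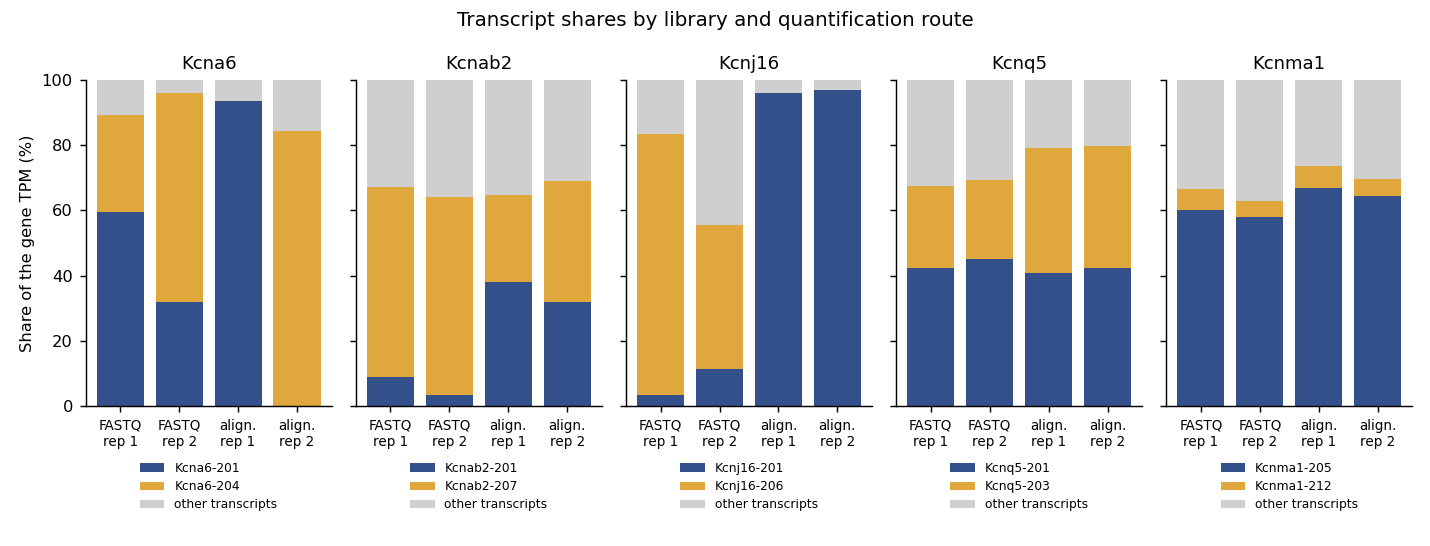
Share of the gene TPM held by a pair of named transcripts and by all others in Kcna6, Kcnab2, Kcnj16, Kcnq5 and Kcnma1, as stacked bars starting at 0, for each library (rep 1, rep 2) from the FASTQ-based table and from alignments (align.). Kcnq5 and Kcnma1 keep the same leading transcript in all 4 bars, whereas in Kcna6 alignments gave 93.5% to Kcna6-201 in replicate 1 and 84.2% to Kcna6-204 in replicate 2.

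The remaining members among the 15 highest had 1 clear leading transcript or a few with like shares. From the FASTQ-based table and from alignments, Kcnh3-201 held 83.4% and 85% of its gene, Kcnmb4-201 91.1% and 93.9%, and Kcnk1-201 88.5% and 79.8%. Kcnj3-201 held 64.3% and 77.3%, and Kcnj3-203, with the same 1503 coding bases in a shorter transcript, 31.1% and 17.5%. Kcnj6 was divided between Kcnj6-201 at 51.9% and 49.9% and Kcnj6-202 at 37.2% and 44.0%, which share 1240 coding bases and differ at one end of the coding sequence. Kcnn2 was spread over more transcripts, with Kcnn2-203 leading from alignments at 29.98%, against 23.1% from the FASTQ-based table.

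Between the libraries, each member tested differed by less than 2-fold. Of the 64 members that averaged 100 or more counts, 0 were called, meaning 2-fold or more apart and under 0.05 after adjustment, beside 0.303% of all genes tested. Rounded expected counts were compared by a two-sided binomial test, which is exact, with TMM scaling and Benjamini-Hochberg adjustment over 12879 genes. Unadjusted, 16 members were under 0.05 (background 23.0%). The log2 ratios of replicate 2 over replicate 1 ran from -0.38 to 0.27, the lowest in Kcns1 and the highest in Kcns3, neither of which passed the test, with a median absolute value of 0.10 among members and 0.07 among all genes. Without the 2-fold limit 10 members (15.6%) passed the adjusted p, beside 11.8% of all genes. Of these, 8 were higher in replicate 2 (background 6.28%) and 2 lower (background 5.5%). Such p-values describe the reads of this pair of libraries and no condition.

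The 8 members higher in replicate 2 had log2 ratios of 0.11 to 0.23. Kcnab2 had 6503 counts in replicate 2 and 6251 in the deeper replicate 1 (log2 ratio 0.17, adjusted p = 1.82e-09, exact binomial test). Kcnab1 had 1647 and 1519 counts (0.23, adjusted p = 0.000199, same test). Kcnj10 had 3945 and 3790 counts (0.17), and further higher members were Kcnj4 (0.19), Kcng1 (0.19), Kcnt2 (0.19), Kcnd2 (0.12) and Kcnj3 (0.11). Among astrocyte markers, the cell type known for Kcnj10, 2 of 6 passed higher and 2 lower, and the list summed to 1174 TPM in replicate 2 and 1115 TPM in replicate 1. The part of astrocytes in the Kcnj10 difference was not tested. Lower in replicate 2 were Kcnn2, with 1717 and 2232 counts (-0.27, adjusted p = 3.99e-07, exact binomial test), and Kcnt1, with 1595 and 1920 counts (-0.15, adjusted p = 0.0181, same test).

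**Figure D4:**
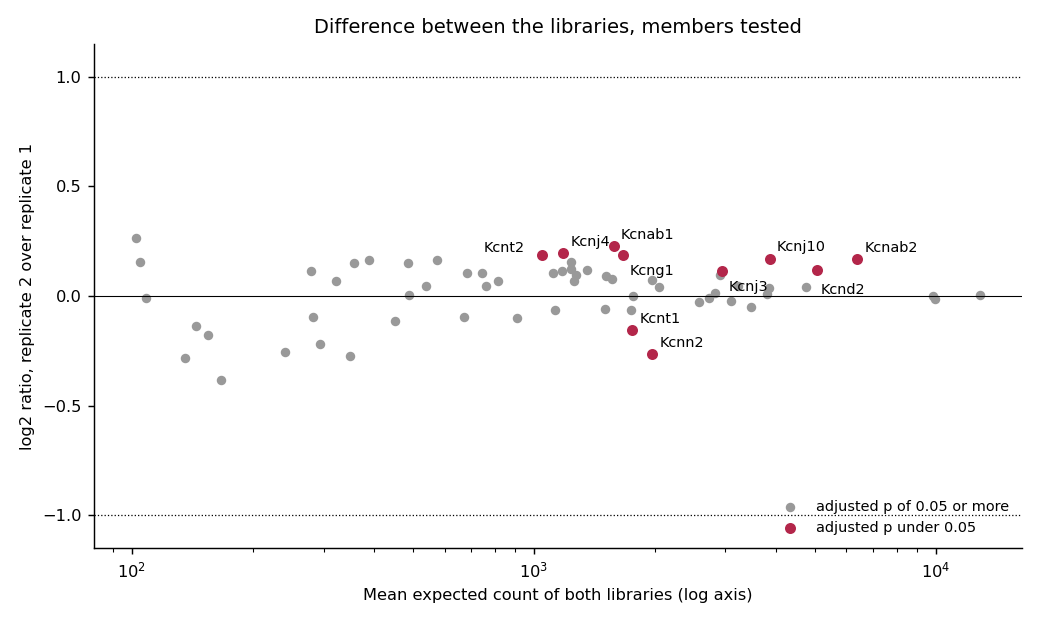
Log2 ratio of replicate 2 (labelled male, with sex-linked genes against that label) over replicate 1 against the mean expected count (log axis) for the 64 members tested. Red points passed an adjusted p under 0.05 in the exact binomial test, grey points did not, and the dotted lines mark 2-fold. All points lie between -0.38 and 0.27, inside the 2-fold lines.

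A pair of members under the count limit differed more. Kcne2, a subunit gene strongly expressed in choroid plexus, had 28 counts in replicate 2 and 2 in replicate 1, 15.1 times as many after scaling (exact 95% counting interval 3.82 to 131). Kcnj13, the Kir7.1 gene, also known from choroid plexus, had 38 counts in replicate 2 and 9 in replicate 1, which is 4.57 times as many after scaling (interval 2.17 to 10.7). The choroid plexus markers were also higher in replicate 2, by unlike amounts. The highest of these, Ttr, had 340.1 TPM in replicate 2 and 8.02 in replicate 1, and the others were Folr1 with 4.97 and 0.59, Sostdc1 with 4.66 and 2.08, Kl with 2.08 and 1.76, Aqp1 with 1.98 and 0.22, and Otx2 with 1.14 and 0.33 TPM, with none at 0. The part of choroid plexus in these values was not tested. Kcnj13 lies within Gigyf2 on the opposite strand, which had 34.2 and 37.2 TPM. With a minimum mean count of 10, both Kcne2 and Kcnj13 passed the test at 2-fold, out of 78 members tested. The share of all genes passing under that minimum was not computed, so these calls have no background beside them.

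The routes ordered the members nearly alike. Over the 92 members the mean levels from the FASTQ-based table and from alignments had a Spearman rho of 0.996, a description over genes quantified from the same libraries. The summed level was 2061 and 2155 TPM in replicates 1 and 2 from the FASTQ-based table, against 1373 and 1403 TPM from alignments. Of 70 members with a mean of at least 1 TPM by either route, the median log2 ratio of FASTQ-based over alignment-based TPM was 0.55 in both libraries, beside 0.63 over all genes. Over protein-coding genes alone it was 0.62 in both libraries. Kcnab1 alone differed at least 2-fold in both libraries, beside 18.9% of all genes, at 51.9 and 65.4 TPM from the FASTQ-based table against 23.0 and 30.1 TPM from alignments. After subtraction of the median of all genes 0 members did (background 11.3%), so Kcnab1 differed by less than 2-fold relative to that shift. Both backgrounds include genes that are not protein-coding, and the share among protein-coding genes alone was not computed.

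Among members with a mean of at least 1 TPM from alignments, those with the highest ratios after Kcnab1 were Kcnt1, with log2 ratios of 0.76 and 1.13 in replicates 1 and 2, Kcnk6 with 0.79 and 0.93, Kcnip3 with 0.80 and 0.81, Kcnmb4 with 0.77 and 0.84, and Kcnk4 with 0.66 and 0.90. Under the same minimum, the lowest were Kcna4 with -0.03 and 0.29, Kcnd1 with 0.17 and 0.15, Kcnu1 with 0.34 and 0.0026, Kcng2 with 0.28 and 0.27, Kcnmb2 with 0.27 and 0.41, and Kcnb2 with 0.32 and 0.36. Below that minimum, Kcnj14 had 0.94 and 0.91, Kcnq1 0.57 and 1.10, Kcnh4 0.65 and 0.55, and Kcnj13 0.29 and 0.20. Of the 12 members above it, Kcnab1, Kcnd1, Kcna4 and Kcng2 are also among the members whose leading transcript differed most in share.

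**Figure D5:**
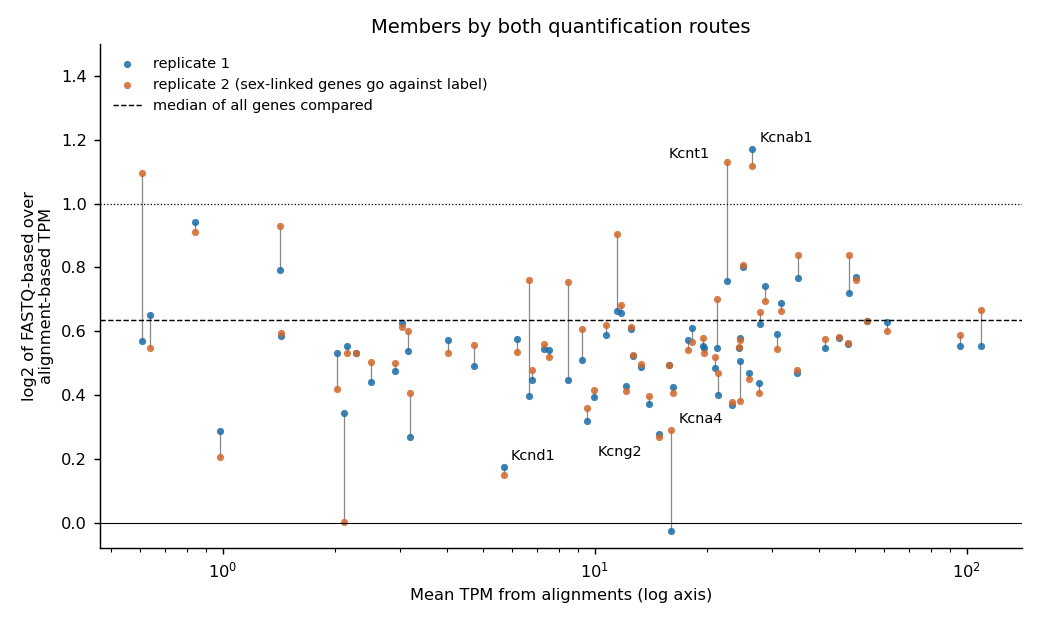
Log2 ratio of FASTQ-based over alignment-based TPM (pseudocount 0.1) against the mean alignment-based TPM (log axis) of 70 members, with replicate 1 in blue and replicate 2, whose sex-linked genes go against its label, in orange joined by grey lines. The dashed line is the median of all genes at 0.63, the dotted line marks 2-fold, and Kcnab1 lies above it in both libraries.

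Genes outside the family whose products bind or anchor these channels were mostly present. Of 27 such partner genes, 24 were detected, beside 59.4% of all protein-coding genes. Of the 24 tested, 3 were higher in replicate 2 (background 6.28%) and 1 lower (background 5.5%) after adjustment in the same binomial test. Dpp6, the auxiliary subunit of Kv4 channels, stood at 96.8 ± 2.08 TPM and its relative Dpp10 at 17.0 ± 1.12. Amigo1, a Kv2 auxiliary gene, had 17.3 ± 1.02 TPM and the Kv2 anchoring genes Vapa and Vapb 69.7 ± 1.78 and 47.4 ± 2.91. Of the Kv1 clustering genes listed, Adam23 had 76.2 ± 4.38 TPM, Lgi1 60.4 ± 1.33, Cntnap2 53.5 ± 1.90 and Cntn2, the lowest, 30.7 ± 2.34 (SD, n = 2). Ank3, which anchors Kcnq3-containing channels at the axon initial segment, had 205.2 ± 0.247 TPM. Of the sulfonylurea receptors that complete ATP-sensitive channels, Abcc8 had 18.7 ± 0.608 and Abcc9 3.69 ± 0.530. Of the BK gamma subunits, only Lrrc55 was detected, at 19.0 ± 0.382 TPM, whereas Lrrc38 had 0.42 ± 0.0990, Lrrc26 had 1 count in replicate 1 and 0 in replicate 2, and Lrrc52 had 0 in both.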

How the data were processed

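Total RNA from hippocampus of 1 group was measured in 2 libraries, labelled biological replicates. The authors deposited gene and transcript tables with expected counts, TPM and TPM intervals from transcriptome alignments (mm10, GENCODE M21), and a transcript table with estimated counts and TPM from the FASTQ file, per the deposited descriptions. The quantification software was not given in the sources used here.

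Members were found by symbol, and the members and lists were chosen with earlier results of these data known. Genes averaging 100 or more counts were compared by a two-sided exact binomial test of rounded expected counts, with TMM library sizes from edgeR 4.0.16 (R 4.3.3) and Benjamini-Hochberg adjustment, and a prior count of 0.5 in log2 ratios. The 26345 rows that name no gene took 0.358% and 0.359% of the counts and entered no test. FASTQ-based gene values are sums over transcripts. Intervals are exact Clopper-Pearson at 95% and cover counting error only. With 1 library on each side, the p-values cover sampling of reads and not variation between animals. The naming rule took the lowest and the 4 highest members per class (all, in classes of up to 5), members passing a test or furthest apart between routes, transcripts of the 15 highest members and of the 8 with the largest route gap, and listed partners. Kcna6, Kcnt1, Kcnn3, Kcnk2 and the exons of Kcnd3, Kcnip1, Kcnip4 and Kcnt1 were added after their transcript values were seen, and the remaining members were added for completeness. Some members and exons are counted in the family and class values but are not reported here by name. Alternatives used another scaling, filter, pseudocount, route or threshold and single libraries. Further software was matplotlib 3.10.9, numpy 2.4.6, pandas 2.3.3 and scipy 1.17.1 under Python 3.11.15.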

Additional observations from a re-analysis of the deposited data

How the results depend on the processing

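The median member level, 8.67 TPM, was 11.96 from the FASTQ-based table, 18.8 with TPM rescaled to protein-coding nuclear genes and 7.32 on protein_coding transcripts only. The Kcnq share of the family, 12.9%, was 13.4% and 12.3% from the FASTQ-based table and on protein_coding transcripts only, where Kcnj led. Members 2-fold different between libraries were 0 with DESeq2 size factors, total counts, FASTQ-based counts or a log2 limit of 0.5, and 2 (Kcne2 and Kcnj13) with a minimum count of 10 or without a filter. The share of all genes called under the relaxed filters was not computed. Of the 10 members passing the adjusted p alone, 10 passed under either other scaling, 9 from FASTQ-based counts (Kcnj4 did not, adjusted p = 0.0679) and 8 without a filter (Kcnj3 and Kcnt2, adjusted p = 0.0515 and 0.0611, exact binomial test). The routes differed 2-fold in 2 members with no minimum TPM (Kcnmb1 added), in 0 after centring, and in 1 to 3 from single libraries (Kcnq1 and Kcnt1 added without replicate 1). The median coding share was 91.2% from the FASTQ-based table. Detected members numbered 63 to 76 under the other thresholds, routes and single libraries, and 43 leading protein_coding transcripts became 42 to 44. The causes were not tested.

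No paired analysis was possible because the study has 1 group. Protein lengths and pore signatures were not run, and CpG content of promoter windows was void, since 67 of 92 members (72.8%) have a window. Depth limits members with few counts, whose ratios have wide intervals, as for Kcne2.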
